A study of Mus musculus with 7 samples.

Results

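The homeodomain factor Shox2 was listed at 15091 positions in the embryonic mouse palate, and 11369 of them (75.3%, exact 95% Clopper-Pearson interval 74.6 to 76.0%) lay neither in a peak listed for Shox2 nor in a peak listed for Pbx in the limb of the same stage. They are called palate-only, Pbx-free positions here. They were chosen by overlap alone: a palate position counted when it fell inside no limb Shox2 peak and inside no limb Pbx peak at their deposited extents. The other 3722 palate positions fell into 1572 (10.4%) inside a limb Pbx peak only, 1368 (9.07%) inside a limb Shox2 peak only, and 782 (5.18%) inside peaks of both lists. Limb Shox2 peaks summed to 10.8 Mb and limb Pbx peaks to 35.2 Mb, while 2525 Mb of the 20 chromosomes lay outside both lists. Nearly all sequence is thus outside both, and the shares inside Pbx and inside Shox2 peaks are not per equal sequence. These counts follow from the choice and are a description, with no test.

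The study used chromatin immunoprecipitation and sequencing (ChIP-seq) on freshly dissected tissue of mouse embryos. Palate Shox2 and limb Shox2, both at E12.5 (the embryonic stage), came from embryos labelled Shox2-HA, in which Shox2 carries an HA epitope, and were precipitated with an anti-HA antibody. Limb Pbx, also at E12.5, was precipitated with an anti-Pbx antibody from limb tissue whose genotype the labels do not give. Each of these 3 groups is 1 library, and the other 4 of the 7 libraries in the series (limb Shox2 at E13.5, a limb and palate mix, an anti-HA ChIP from untagged Shox2+/+ embryos, and an input) were not analysed here. The labels do not give the number of embryos in a library, their strain or sex, or which Pbx proteins the antibody detects.

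Shox2 is a transcription factor with a homeodomain, a DNA-binding fold whose core sites are short and rich in A and T. In the mouse it is needed in the proximal limb skeleton and in the mesenchyme of the anterior palate, where its loss leads to a cleft. Pbx proteins belong to the TALE group of homeodomain factors, which bind DNA alone or next to other homeodomain proteins and so help to place them. Limb and palate mesenchyme both express Pbx proteins, but Pbx was profiled in limb only, so a palate position without limb Pbx may still be bound by Pbx in the palate.

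The deposited lists give a chromosome, a start and an end, with no height, score or read count. The limb lists hold 33915 peaks each, with a median width of 261 bp for Shox2 and 897 bp for Pbx, and each palate entry is 1 bp wide. Depth is unknown for all 3 libraries, and no value below carries a replicate error or a test between tissues. A position that a list lacks may still be bound. Limb and palate also differ in library, so tissue and library cannot be told apart. Intervals treat positions as independent and cover counting error only. The spread over 20 chromosomes is given beside the main values in their place. The files pair no position with a gene, and no gene annotation or sequence of build mm9, the build of the files per the submitters' processing notes, was used here; regions are located by mm9 position.

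Palate-only, Pbx-free positions became more frequent down the palate list. They made up 852 of the first 1509 lines (56.5%, interval 53.9 to 59.0%), 1195 of the fifth 1509 (79.2%) and 1265 of the last 1510 (83.8%, interval 81.8 to 85.6%). The share was higher in the last 50% of the list than in the first 50% on 20 of 20 chromosomes, with 81.0% (74.6 to 83.4% by chromosome) and 69.7% (65.1 to 72.7%). The files do not state what their order means, so it was read only as a possible ranking. Even so, the top of the list was not empty of them: they held 7 of the first 10 lines, 48 of the first 100 and 83 of the last 100.

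The classes that made room for them were those in limb Shox2 peaks, with or without limb Pbx. From the first to the last of 10 parts of the palate list, positions in a limb Shox2 peak only went down from 18.6% to 3.91%, and positions in peaks of both limb lists went down from 13.8% to 1.99%. Positions in a limb Pbx peak only stayed between 8.61% and 11.6% in all 10 parts, with 11.1% (interval 9.59 to 12.8%) in the first and 10.3% (8.84 to 12.0%) in the last. These are shares of the whole list. Positions in both limb lists also lie in a limb Pbx peak, so the share in any limb Pbx peak went down as well. The median line in the file was 8108 for palate-only, Pbx-free positions, against 7326 for those in limb Pbx only, 4755 for those in limb Shox2 only and 3887 for those in both.

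**Figure D1:**
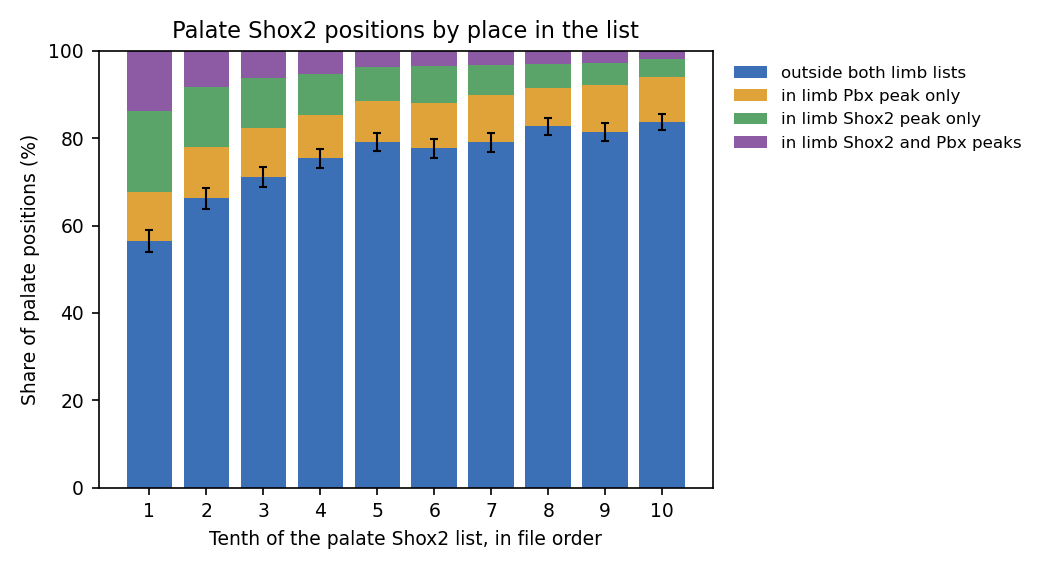
Share of palate Shox2 positions (%, vertical axis) in each of 4 classes, for 10 equal parts of the palate list in file order (horizontal axis); error bars are exact 95% intervals of the palate-only, Pbx-free share. That share goes up along the list, the 2 classes in limb Shox2 peaks shrink, and the class in limb Pbx peaks only keeps a width of 8.61% to 11.6%.

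The boundary of the set runs through closely spaced positions. The 5 palate-only, Pbx-free positions nearest to a limb Shox2 peak were each 1 bp outside it, for example chr9:8634143-8634143, next to a peak of 283 bp at chr9:8634144-8634426. The 5 positions just on the other side of that limit were each the first or last base of a limb Shox2 peak, for example chr2:22631393-22631393, the first base of a peak of 299 bp. Around limb Pbx peaks the 5 nearest palate-only, Pbx-free positions were 5 to 18 bp outside, and the 5 nearest positions in limb Pbx only stood on the second to the fifth base from the edge.

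Per base, palate-only, Pbx-free positions were densest just outside limb Shox2 peaks, although most of them lay farther away. Within 100 bp of a limb Shox2 peak there were 250 of them (2.20%) and within 500 bp 611 (5.38%). Counted per base, over all bases outside both limb lists, this was 49.1 positions per Mb at 1 to 100 bp from the edge (exact Poisson interval 43.2 to 55.6), 16.9 at 100 to 500 bp and 7.14 at 500 bp to 1 kb. The mean over all such bases of the 20 chromosomes, 2525 Mb, was 4.50 per Mb, so the first 100 bp stood 10.9-fold above it. Density then went down slowly, to 5.97 per Mb at 1 to 5 kb, 4.66 at 10 to 50 kb and 3.05 beyond 100 kb. The density within 500 bp of a limb Shox2 peak was above the chromosome's own mean on 20 of 20 chromosomes.

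The shoulder was present at both ends of the palate list. In the first 50% of the list, the density at 1 to 100 bp stood 12.3-fold above the mean of those positions, and in the last 50% it stood 9.75-fold above. The share of palate-only, Pbx-free positions within 500 bp of a limb Shox2 peak was 7.75% in the first of the 10 parts of the list and 4.82% in the last. The 249 limb Shox2 peaks with such a position within 100 bp had a median width of 237 bp, against 261 bp in the whole limb list, and a median line of 19694, against 16958 for the middle of that list. The rule has a part in that width, since a narrower peak leaves more of the sequence around it outside. The 39 limb Pbx peaks with such a position within 100 bp went the other way, with a median width of 984 bp against 897 bp and a median line of 14642 against 16958. A position near the edge of a limb Shox2 peak was thus counted as palate-only although a limb Shox2 site was close by. Extending every peak of both limb lists by 500 bp on each side left 10560 palate-only, Pbx-free positions. That fall combines the lists: 611 positions lay within 500 bp of a limb Shox2 peak and 217 within 500 bp of a limb Pbx peak.

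Around limb Pbx peaks the profile had another shape. Density was 6.04 positions per Mb at 1 to 100 bp from a Pbx peak (interval 4.32 to 8.23), 6.82 at 100 to 500 bp, 7.03 at 1 to 5 kb and 7.46 at 5 to 10 kb, all 1.34-fold to 1.66-fold above the mean. It went down to 5.90 at 10 to 50 kb, 3.70 at 50 to 100 kb and 1.50 (1.41 to 1.59) beyond 100 kb. The density within 10 kb of a Pbx peak was above the chromosome's own mean on 20 of 20 chromosomes, whereas that within 500 bp was above it on 15 of 20. Pbx peaks are wider as deposited, and the width also sets which positions count as outside. With every limb peak set to 200 bp around its centre, 12898 palate positions lay outside, some of them inside limb peaks as deposited. Their density was 95.2 per Mb within 100 bp of a Shox2 peak (interval 87.8 to 103), against a mean of 5.05. Within 100 bp of a Pbx peak it was 71.2 (64.8 to 78.1).

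**Figure D2:**
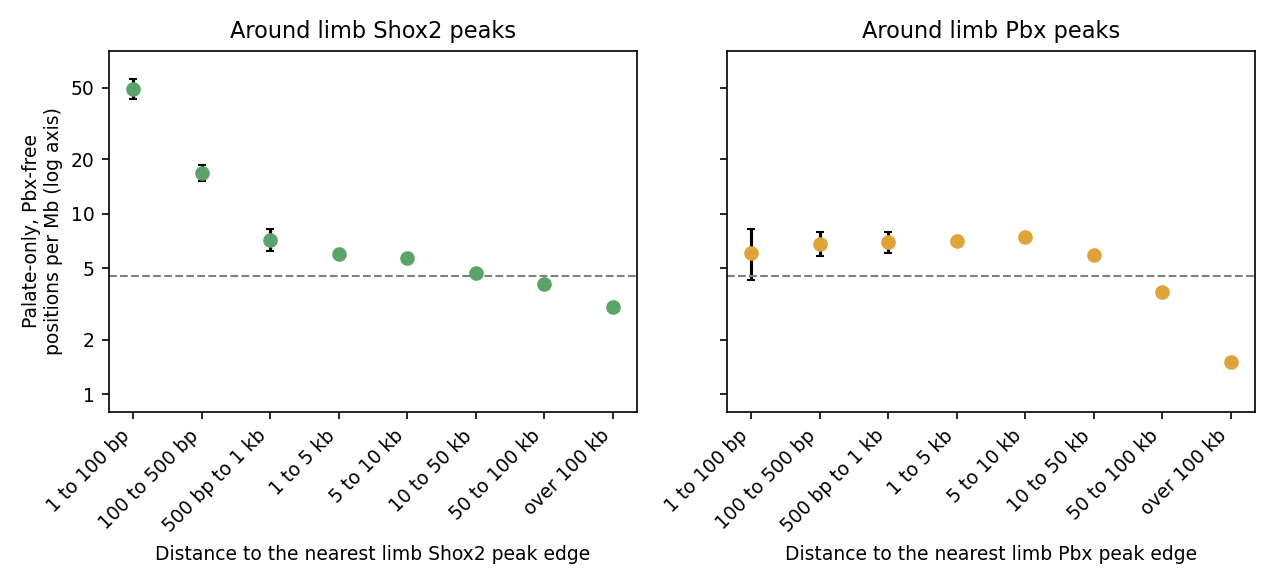
Palate-only, Pbx-free positions per Mb of sequence outside both limb lists (log axis) by distance to the edge of the nearest limb Shox2 peak (left) or limb Pbx peak (right); bars are exact 95% Poisson intervals and the dashed line is the mean, 4.50 per Mb. Left, density is 49.1 per Mb in the first 100 bp and 7.14 by 500 bp to 1 kb; right, it is level to 10 kb and reaches 1.50 beyond 100 kb.

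Most of the positions had a limb peak of either factor within 50 kb, and 1220 (10.7%) had neither that close. The median distance to the nearest limb Shox2 peak was 26.4 kb (quartiles 8.15 and 78.3 kb), and that to the nearest limb Pbx peak was 19.5 kb (quartiles 7.51 and 46.6 kb). By autosome, the medians ran from 15.5 to 44.7 kb for Shox2 and from 14.5 to 24.8 kb for Pbx. On X, where all lists are sparse, they were 76.8 and 55.7 kb. Within 10 kb, 1431 positions (12.6%) had both a Shox2 and a Pbx limb peak, 2159 (18.99%) had Pbx alone, 1813 (15.9%) had Shox2 alone and 5966 (52.5%) had neither. Within 100 kb, 299 (2.63%) had neither. Much of the genome lies as close to a limb peak. Of the 2525 Mb outside both limb lists, 1740 Mb had neither within 10 kb. Beyond 100 kb from limb Shox2 lay 740 Mb of it, and beyond 100 kb from limb Pbx 742 Mb.

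A limb peak of either factor within 10 kb went with a higher density, and the density was highest where both were near. It was 7.63 positions per Mb (interval 7.24 to 8.03) where both were within 10 kb, 6.92 (6.63 to 7.22) with Pbx alone and 6.35 (6.06 to 6.65) with Shox2 alone. Where neither was near it was 3.43 (3.34 to 3.52). All bases were counted, with no mask for assembly gaps or sequence that reads cannot be placed in, and X was pooled with the autosomes. Other palate positions were not split this way.

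Distances were set beside those of other palate classes that the rule treats alike in one respect. Both palate-only classes lie outside limb Shox2 peaks: the Pbx-free positions had a median of 26.4 kb to the nearest limb Shox2 peak (interval 25.5 to 27.5 kb), and those in a limb Pbx peak had 21.1 kb (18.4 to 24.2 kb). The Pbx-free ones were farther on 15 of 20 chromosomes. They also lay within 500 bp of a limb Shox2 peak less often, with 5.38% against 14.8% of those in a limb Pbx peak. Limb Pbx peaks split these classes, so a position beside a limb Shox2 peak and inside a Pbx peak can only be in the latter. The difference in distance to limb Shox2 is thus partly set by the rule and was not tested. The distance to limb Pbx was nearly alike in the classes outside Pbx peaks, at 19.5 kb (18.9 to 20.02 kb) for palate-only positions and 19.3 kb (17.3 to 21.1 kb) for those in a limb Shox2 peak, with palate-only positions farther on 12 of 20 chromosomes.

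Across the genome, palate-only, Pbx-free positions were dense where limb Pbx peaks were dense, although none lay in one. Among the 2504 windows of 1 Mb that held a peak of any list, 2076 held such a position, with a median of 4 (quartiles 1 and 7). Windows with no limb Pbx peak had a median of 0 positions (101 windows), those with 10 to 19 Pbx peaks had 5 (731 windows), and those with 30 or more had 9 (256 windows). The palate-only, Pbx-free share of palate positions went down between the first and last of these groups, from 93.0% to 70.8%. The other palate positions thus rose as well, and the rise was not particular to this class. More limb peaks lower this share by construction. Grouped by limb Shox2 peaks, windows with none had a median of 2 positions (69 windows), those with 10 to 19 had 3 (770 windows) and those with 30 or more had 6 (229 windows). Spearman's rho across windows was 0.70 with limb Pbx peaks (0.55 to 0.76 within single autosomes) and 0.25 with limb Shox2 peaks (0.01 to 0.49). Windows share the same sequence, mappability and gene content in all lists, so these are descriptions and carry no p.

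The pattern with Pbx held within windows of like Shox2 counts. In windows with 5 to 19 limb Shox2 peaks, the mean was 1.40 positions with 0 to 4 Pbx peaks (362 windows), 2.77 with 5 to 9 (363 windows), 5.25 with 10 to 19 (362 windows) and 8.04 with 20 or more (272 windows). With Shox2 counts, the means changed most where Pbx peaks were few. These means pool X, where all lists are sparse, with the autosomes, which hold 2363 of the 2504 windows. They were not computed for autosomes alone, where rho was 0.68 with limb Pbx and 0.20 with limb Shox2 peaks. In windows with 0 to 4 Pbx peaks, the mean was 0.907 with 0 to 4 Shox2 peaks (247 windows), 1.40 with 5 to 19 and 3.13 with 20 or more (15 windows). In windows with 5 to 9 Pbx peaks it was 3.02, 2.77 and 3.76 along the same groups, and with 20 or more Pbx peaks 7.94, 8.04 and 8.92. In windows with 10 to 19 Pbx peaks, the mean was 5.19 with 0 to 4 Shox2 peaks (124 windows), 5.25 with 5 to 19 and 5.48 with 20 or more (245 windows). For all other palate positions, rho across windows was 0.62 with limb Pbx and 0.44 with limb Shox2 peaks, but these lie inside limb peaks by definition.

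**Figure D3:**
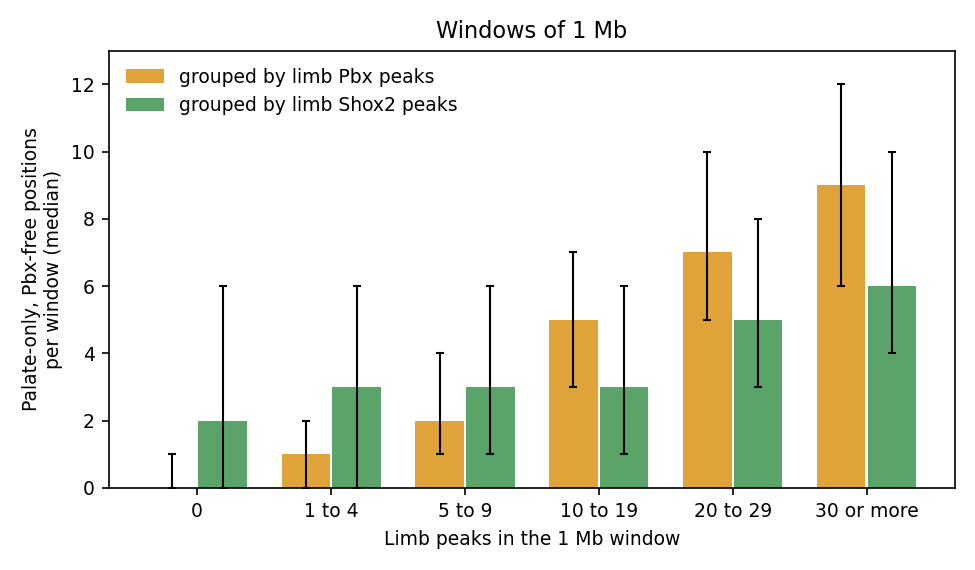
Palate-only, Pbx-free positions per 1 Mb window (vertical axis; bars are medians, lines are quartiles) by the number of limb Pbx or limb Shox2 peaks in the window (horizontal axis). Medians go from 0 to 9 along the Pbx groups and from 2 to 6 along the Shox2 groups.

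Autosomes showed the same for limb Pbx peaks, but not for limb Shox2 peaks. Palate-only, Pbx-free positions lay at 3.91 per Mb on chromosome 7 up to 5.72 per Mb on chromosome 11, and at 0.591 per Mb (interval 0.478 to 0.722) on X. Over the 19 autosomes, their density had a Spearman's rho of 0.75 (Pearson's r 0.79) with limb Pbx peaks per Mb and of -0.01 (r 0.03) with limb Shox2 peaks per Mb. Without the 2 autosomes farthest from the median Pbx density, 5 and 11, r was 0.77. Without the 2 farthest from the median Shox2 density, 7 and 18, r was -0.30. The share of the palate list that was palate-only and Pbx-free varied little, from 71.3% on chromosome 18 to 77.4% on chromosome 6, with 74.2% on X.

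The palate classes also differed in how they followed the density of protein-coding genes. Per Mb of a chromosome, palate-only, Pbx-free positions had a rho of 0.33 with protein-coding genes over the 19 autosomes. Positions in a limb Pbx peak only had 0.72, and positions in a limb Shox2 peak had -0.56. Pearson's r was 0.32, 0.79 and -0.60 for these 3 classes, and 0.47, 0.79 and -0.51 without chromosomes 7 and 11, whose gene density is farthest from the median. The classes are defined by limb peaks, so these values partly carry over where those peaks lie. Over the 19 autosomes, positions in a limb Pbx peak only had a rho of 0.80 with limb Pbx peaks per Mb. Positions in a limb Shox2 peak had 0.81 with limb Shox2 peaks per Mb. Gene counts per chromosome came from the RefSeq table of GRCm38.p6, of which no coordinate was used. Chromosome 7, with 13.6 genes per Mb, had 28.8 palate-only, Pbx-free positions per 100 genes, and chromosome 18, with 5.82 genes per Mb, had 82.2.

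**Figure D4:**
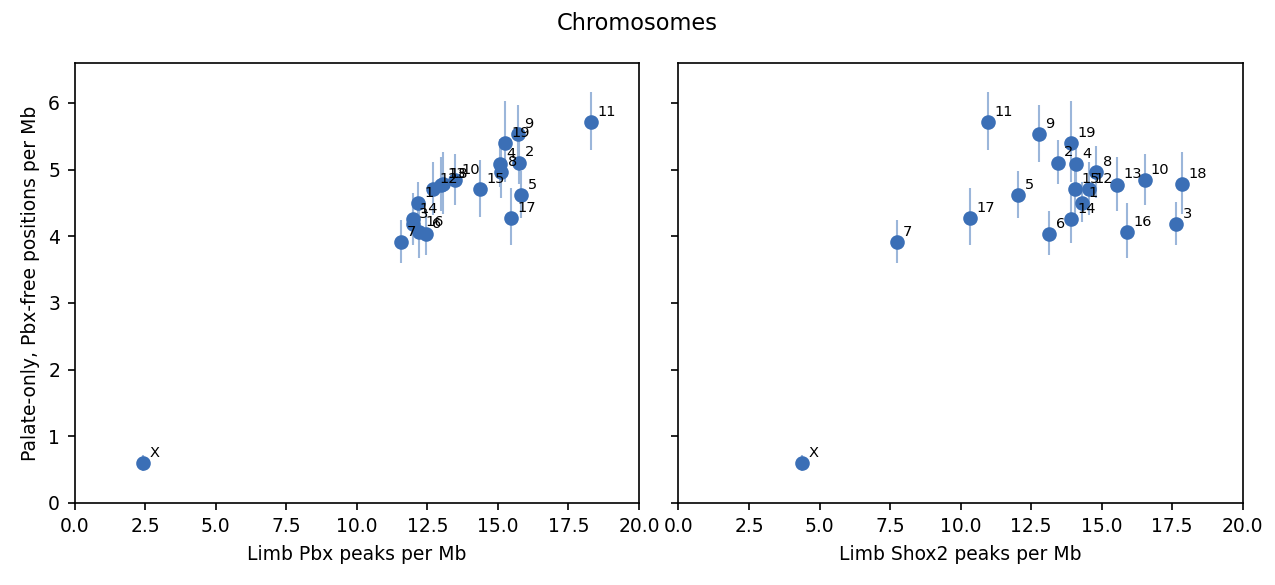
Palate-only, Pbx-free positions per Mb of each chromosome (vertical axis, with exact 95% Poisson intervals) against limb Pbx peaks per Mb (left) and limb Shox2 peaks per Mb (right); numbers are chromosomes. Over the autosomes Spearman's rho is 0.75 with Pbx and -0.01 with Shox2, and X lies low in both panels, at 0.591 positions per Mb.

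The densest window of 1 Mb was chromosome 14 from 29 to 30 Mb, with 35 palate-only, Pbx-free positions among 38 palate positions. It also held 36 limb Shox2 and 19 limb Pbx peaks. The 35 positions were spread over 964 kb with a median gap of 21.0 kb, and the median distance to a limb Shox2 peak was 7.58 kb. The limb Shox2 peaks ran through the whole window as well, so palate-only positions and limb peaks were interspersed there, without strict alternation. Of the 35, 16 stood in the first 50% of the palate list, where 46.3% of all palate-only, Pbx-free positions stood.

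**Figure D5:**
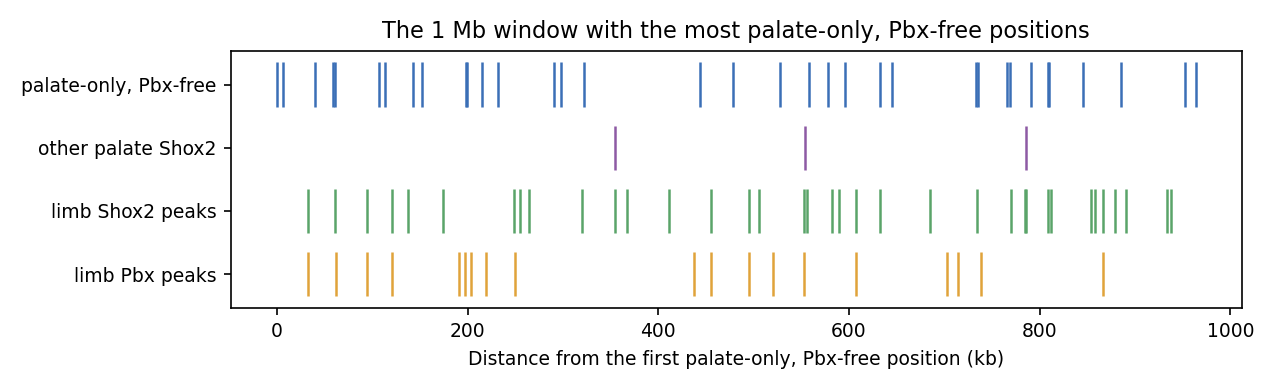
Palate-only, Pbx-free positions, other palate positions and the centres of limb Shox2 and limb Pbx peaks in the 1 Mb window with the most palate-only, Pbx-free positions (horizontal axis: distance in kb from the first of them). The 35 positions are interspersed with 36 limb Shox2 and 19 limb Pbx peaks.

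Other dense windows differed in how much limb Shox2 they held. With the first 50% of the palate list alone, 4 of the 10 densest windows were still among the 10 densest. Chromosome 5 from 38 to 39 Mb had 26 palate-only, Pbx-free positions of 31, next to 8 limb Shox2 and 16 Pbx peaks. Its first 500 kb held 22 of them, the most in any of the fixed windows of 500 kb. Chromosome 1 from 78 to 79 Mb had 25 of 27, in a window that held 26 Shox2 and 16 Pbx peaks too. On chromosome 6, the window from 84 to 85 Mb had 23 of 24, along with 9 Shox2 and 21 Pbx peaks, and these stood high in the file, with a median line of 3938.

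Chromosome 5 from 115 to 116 Mb had 22 palate-only, Pbx-free positions of 23. It held 30 limb Pbx peaks and 1 limb Shox2 peak, so the median distance was 12.2 kb to Pbx and 675 kb to Shox2. The neighbouring windows of chromosome 12 from 107 to 108 and from 108 to 109 Mb had 21 of 23 and 22 of 28, each beside 34 Pbx peaks, with 16 and 14 Shox2 peaks. Chromosome 5 from 112 to 113 Mb had 21 of 25 and the most Pbx peaks among the 10 densest windows, 60. The window from 80 to 81 Mb of chromosome 7 had 21 of 24. The one from 27 to 28 Mb of chromosome 12 had 21 of 32, the lowest share of the 10 at 65.6%.

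Windows without any limb Shox2 peak were searched next, after their values had been seen. There were 47 with a palate-only, Pbx-free position, holding 224 of them. In windows without a limb Shox2 peak they made up 86.2% of palate positions, a share that the missing peaks raise by construction. The 5 windows with the most of them follow. On chromosome 17 from 29 to 30 Mb all 17 palate positions were of this class, beside 38 limb Pbx peaks. On chromosome 15 all 11 from 78 to 79 Mb were, beside 41 Pbx peaks, and all 11 from 88 to 89 Mb, beside 6. On chromosome 8, 12 of 13 from 108 to 109 Mb were, beside 17 Pbx peaks, and on chromosome 2, 9 of 10 from 167 to 168 Mb, beside 45. Only 2 windows with such a position lacked peaks of both limb lists, 1 on chromosome 3 (93 to 94 Mb) and 1 on chromosome 7 (34 to 35 Mb), with 1 position each.

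At short range most of the positions stood alone. Of 11368 with another palate position on their chromosome, 3089 (27.2%, interval 26.4 to 28.0%) had one within 10 kb, and the median distance to the nearest was 30.2 kb (29.1 to 31.4 kb). Positions in a limb Pbx peak only had one within 10 kb in 33.3% of cases (30.9 to 35.7%), and the palate-only, Pbx-free share was lower than theirs on 17 of 20 chromosomes. For positions in a limb Shox2 peak only the share was 27.0%, and for those in both it was 32.0%. Over all palate positions it was 28.0%, with a median distance of 28.6 kb. The spacing of palate-only, Pbx-free positions was thus near that of the whole palate list, but they make up 75.3% of it, so the values could hardly differ. The median distance was 21.3 kb for positions in a limb Pbx peak only, 30.2 kb for those in limb Shox2 only and 22.6 kb for those in both. By autosome, the share of palate-only, Pbx-free positions ran from 20.1% on chromosome 19 to 33.5% on chromosome 12, with 6.32% on X.

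The nearest neighbours of these positions were mostly of their own class, at about the share that class has in the palate list. Of the 3089 palate-only, Pbx-free positions with a palate neighbour within 10 kb, 2435 (78.8%) had one of their own class as the nearest, against 72.6% of all palate positions with a neighbour that close and a 75.3% share of the list. Among positions in a limb Pbx peak only that had a neighbour that close, the nearest was palate-only and Pbx-free for 271 of 523 (51.8%), and among those in both limb lists for 120 of 250 (48.0%). Neighbours of these classes can lie in the same limb peak, which lowers the last 2 values by construction.

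Chained at gaps of up to 10 kb, palate positions formed 1874 runs of 2 or more, and 1034 of those were made of palate-only, Pbx-free positions alone. The longest such run had 7 positions over 26.7 kb at chr11:19007383-19034131. No limb peak of either factor lay in that stretch, and the nearest were 5.13 kb (Shox2) and 8.75 kb (Pbx) from its end. Its members stood from line 567 to line 13631 of the palate list.

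Runs of 5 were found 5 times, at chr1:14274348-14295565, chr1:42741092-42752575, chr1:62948240-62957109, chr3:55545393-55557976 and chr12:34658147-34668219, each without any other palate position. The runs on chromosomes 3 and 12 had 1 limb Shox2 peak between their positions, and the 3 on chromosome 1 had none. None of the 5 held a limb Pbx peak. The run at 62.9 Mb of chromosome 1 included line 65 of the palate list and was 13.1 kb from limb Shox2 and 13.2 kb from limb Pbx.

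The first palate-only, Pbx-free position in the file was line 2, at chr2:142543421-142543421, 0.702 kb from a limb Shox2 peak and 43.9 kb from a Pbx peak. Line 4, at chr18:38897186-38897186, was 57.6 kb from limb Shox2 and 16.5 kb from limb Pbx, and line 5, at chr18:80692728-80692728, was 98.3 and 9.48 kb away. Among the first 10 of the class, which took 10 of the first 20 lines, distances ran from 0.702 to 98.3 kb to limb Shox2 and from 7.69 to 43.9 kb to limb Pbx. Positions at the top of the list were thus found both next to limb sites and far from them.

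By the smaller of the distances to limb Shox2 and limb Pbx, the most isolated positions, singled out after their values were seen, were on chromosomes 17 and 15. To 1 limb list alone distances were larger, up to 2365 kb for Shox2 and 2044 kb for Pbx. At chr17:32988742-32988742 the nearest limb peaks were 596 kb (Shox2) and 741 kb (Pbx) away. At chr15:88118795-88118795 and chr15:88121604-88121604 they were 811 and 814 kb away for Shox2 and 543 and 540 kb for Pbx. The last of these stood at line 759 of the palate list, and the others at lines 14068 and 13271.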

How the data were processed

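Per the submitters' processing notes, reads were aligned with Bowtie and peaks found with MACS2 on mouse build mm9; versions, settings and the rule that ended each list are not stated there. The deposited files of palate Shox2, limb Shox2 and limb Pbx give start and end positions only, used as deposited. Sequence names such as chr9_random follow the UCSC naming of older builds. Positions are printed counted from 1. A palate position was classed by whether it lay inside a limb peak; distances run to the nearest peak edge. Density was taken per base outside both limb lists, between the first and last peak of each of 20 chromosomes, with no mask for assembly gaps. The set, the regions named and the comparisons were chosen with earlier results of these data known. Regions were named by rule: the 10 densest windows of 1 Mb, windows without a peak in either limb list and the 5 longest runs at 10 kb (with ties). The first 10 positions in the file and the 5 on either side of each limit were named by rule as well. Windows that lacked limb Shox2 peaks only, and the most isolated positions, were named after their values had been seen. No test was run, since each group has 1 library. The classing and distances were tested on simulated data against bedtools. Alternatives were wider, equal or fewer limb peaks, the first 50% of each list, other distances and windows, and autosomes only. The planned steps on genes and motifs need an mm9 annotation and genome and were left out. The deposited co-occupancy list was not used. Python 3.11.15, NumPy 2.4.6, pandas 2.3.3, SciPy 1.17.1 and matplotlib 3.10.9 were used.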

Additional observations from a re-analysis of the deposited data

How the results depend on the processing

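The number of palate-only, Pbx-free positions stayed between 10196 (limb peaks extended by 1000 bp) and 12648 (as many limb peaks of each list as palate positions, taken in file order) in 6 of 7 alternatives. The first 50% of the palate list gave 5259 (69.7% of it). Extending limb peaks by 500 bp gave 50.8% in the first of the 10 parts of the list and 77.7% in the last, against 56.5% and 83.8%. The share with a palate neighbour was 18.1% within 5 kb, 63.9% within 50 kb, and 17.6% within 10 kb in the first 50% of the list, where fewer positions can be neighbours. In that 50%, positions in a limb Pbx peak only had 22.0%, those in a limb Shox2 peak only 15.8% and those in both 21.6%. Median distances were 54.7 kb to limb Shox2 and 39.1 kb to limb Pbx with the first 50% of each limb list, which holds fewer peaks. The densest window held 19 positions in the first 50% of the palate list and was then on chromosome 6 from 84 to 85 Mb, and 4 of the 10 densest windows were among those reported. Windows of 500 kb gave a rho of 0.57 with limb Pbx and 0.19 with limb Shox2. The equal width of 200 bp, and the split of the density profiles by place in the list, were chosen after seeing the data. At that width the first 100 bp stood 18.9-fold above the mean around Shox2 and 14.1-fold around Pbx. These values cover the 12898 palate positions outside the resized peaks, some of them inside limb peaks as deposited. For palate-only, Pbx-free positions at the deposited widths they were 10.9-fold and 1.34-fold, so the set of positions changed along with the width. Of 27 alternatives in all, 16 stayed within the counting interval, within 1.5 times a count or, for the rho across chromosomes, within 0.1. No paired analysis was possible because the 3 groups hold 1 library apiece. With unknown depth, absence from a list may mean only that a site fell short of its threshold.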

Other observations

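Of the 11369 palate-only, Pbx-free positions, 3 lay off the 20 chromosomes. One was on the mitochondrial genome, at line 1290 of the palate list, where no limb peak was listed. The other 2 were on chr9_random, at lines 10680 and 11052, where limb Pbx but no limb Shox2 peaks were listed; the nearest Pbx peak was 76758 and 76194 bp away. These 3 entered the counts of the set and the shares by place in the list, and were left out of densities and windows.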
